A study of Caenorhabditis elegans with 4 samples.

Results

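In ChIP-seq of the worm Y-box protein CEY-2, 687 of the 3000 highest peaks had their summit on an autosome and 0 to 500 bp upstream of the annotated start of a protein-coding gene. They were chosen from the pooled peak list in genome build ce11 by the rank of the deposited signal value and by this position, so their height and place describe the choice and were not tested. They made up 22.9% of the 3000 peaks and 28.0% of the 2454 that were autosomal. The pooled list was deposited as peaks and background, as input for the authors' threshold, and 128 of the 687 passed that threshold. A place among the 687 is therefore not in itself a called binding site. The other 1767 autosomal peaks, which lay elsewhere relative to coding genes, served as the comparison. Since 1 summit can lie in front of several genes, the 687 peaks gave 802 pairs of peak and gene, and 786 different genes, or 4.56% of the 17242 autosomal coding genes.

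The worms were hermaphrodites at the L4 larval stage of Caenorhabditis elegans strain OP358, with the genotype unc-119(tm4063) III; wgIs358. In this 1 line the integrated transgene wgIs358 carries CEY-2 with a GFP-FLAG tag at its C terminus, and an antibody against GFP recovered the tagged protein from sonicated chromatin of whole animals, so that no cell type can be assigned. There were 4 libraries from 3 biological replicates, the 2 technical libraries of replicate 2 having been merged by the authors, and all belonged to 1 group. No read counts were used here, so the depth of each library is unknown, and the control used for peak calling was not analysed here.

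Y-box proteins carry a cold shock domain that binds single-stranded nucleic acids, and they are known above all as RNA-binding proteins that package and regulate messenger RNA in the germ line and in the cytoplasm. The family is named after the Y-box, an inverted CCAAT element in vertebrate promoters. In the worm the region just upstream of a coding gene commonly holds the promoter, and adjacent genes that face away from each other often share one. Many worm messenger RNAs receive a spliced leader by trans-splicing, so that an annotated start is not always the site where transcription begins.

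The sequences below show what lay under the summits of some of the highest peaks. Each is the 201 bp window centred on the summit, read from the RefSeq genome sequence of ce11 (WBcel235), 5′ to 3′ on the strand of the gene it is named after. Capitals mark 4 words found on either strand, which were more frequent near these summits than in other promoters: GAGAGA, a GA repeat; TGATAA, a site of GATA factors; CACGTG, an E-box; and CTGCGTC. The first is the window of the highest peak, upstream of rpl-3 (chrIII:3867461-3867661, plus strand), and the second that of the peak between H12C20.7 and nhr-68 (chrV:11572905-11573105, minus strand), with a GA repeat that runs into a GATA site 5′ of the summit and an E-box at it. The windows of F56C9.10 (chrIII:7335338-7335538, minus strand), F43H9.4 (chrV:8026453-8026653, plus strand) and unc-23 (chrV:8936134-8936334, plus strand) carry an E-box or CTGCGTC, with a pair of E-boxes at F43H9.4.
rpl-3: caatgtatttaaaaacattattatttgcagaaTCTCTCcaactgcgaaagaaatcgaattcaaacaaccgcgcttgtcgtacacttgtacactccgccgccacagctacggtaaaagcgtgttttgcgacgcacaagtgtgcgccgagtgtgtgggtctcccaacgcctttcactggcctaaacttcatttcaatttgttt
H12C20.7: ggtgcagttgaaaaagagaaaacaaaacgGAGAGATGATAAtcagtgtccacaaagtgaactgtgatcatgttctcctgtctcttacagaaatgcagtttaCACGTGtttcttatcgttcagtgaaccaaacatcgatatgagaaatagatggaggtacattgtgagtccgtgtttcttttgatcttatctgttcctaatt
F56C9.10: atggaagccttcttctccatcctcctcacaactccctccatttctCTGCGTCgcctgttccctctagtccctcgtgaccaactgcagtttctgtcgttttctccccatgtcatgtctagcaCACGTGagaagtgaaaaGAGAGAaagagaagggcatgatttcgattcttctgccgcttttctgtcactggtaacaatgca
F43H9.4: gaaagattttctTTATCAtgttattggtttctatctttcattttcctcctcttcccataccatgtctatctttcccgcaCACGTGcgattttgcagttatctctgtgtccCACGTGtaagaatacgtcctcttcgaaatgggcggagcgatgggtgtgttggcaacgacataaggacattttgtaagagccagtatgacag
unc-23: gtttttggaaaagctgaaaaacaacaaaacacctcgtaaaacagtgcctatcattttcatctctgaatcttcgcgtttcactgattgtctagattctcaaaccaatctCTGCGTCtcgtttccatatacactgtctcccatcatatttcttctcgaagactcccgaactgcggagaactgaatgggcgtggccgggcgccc

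High peaks without these words are shown by the windows of rpl-15 (chrIV:654818-655018, minus strand) and cdc-48.1 (chrII:10563485-10563685, minus strand). The last window, of F28H7.8 (chrV:10758629-10758829, plus strand), belongs to a peak at the lower edge of the choice, with rank 2991, and also has none of them.
rpl-15: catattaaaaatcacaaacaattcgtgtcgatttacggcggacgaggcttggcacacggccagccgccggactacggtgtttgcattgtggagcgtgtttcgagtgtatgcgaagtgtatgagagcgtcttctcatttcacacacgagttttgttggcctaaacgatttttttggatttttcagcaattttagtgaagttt
cdc-48.1: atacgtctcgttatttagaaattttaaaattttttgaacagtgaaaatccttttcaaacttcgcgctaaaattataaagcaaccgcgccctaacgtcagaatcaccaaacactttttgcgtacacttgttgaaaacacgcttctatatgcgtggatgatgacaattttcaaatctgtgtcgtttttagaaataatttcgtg
F28H7.8: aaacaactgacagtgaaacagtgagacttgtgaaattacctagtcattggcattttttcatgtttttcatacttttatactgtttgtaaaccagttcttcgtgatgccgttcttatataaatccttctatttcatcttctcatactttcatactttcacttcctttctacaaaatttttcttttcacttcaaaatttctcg

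The pooled signal, a value set by the peak caller, ran from 19.2 to 163 over the upstream peaks, with a median of 25.3 and quartiles of 21.6 and 32.4. The other autosomal peaks had a median of 25.5 and reached 157. Of the upstream peaks, 128 (18.6%, exact 95% interval 15.8 to 21.7) passed the authors' threshold on the irreproducible discovery rate (IDR), which scores how well ranks recur between replicates, against 20.8% of the other autosomal peaks. The heights of the 2 sets thus covered nearly the same range. The deposited width was 390 bp for 685 of them, and the narrower ones were the peaks of rpl-3, at 183 bp, and of Y17G9B.5 and rpl-20, at 126 bp.

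The highest upstream peak, which held rank 18 of the pooled list with a signal of 163, lay 293 bp upstream of rpl-3 (WBGene00004414), a gene for a large-subunit ribosomal protein. Its rank was 24, 21 and 24 in the lists of replicates 1, 2 and 3, so it stood near the top of each. The next peak, with rank 25 and a signal of 122, lay 15 bp upstream of H12C20.7 (WBGene00305173) and, on the opposite strand, 435 bp upstream of nhr-68, which encodes a nuclear hormone receptor. It ranked 63, 23 and 53 in the replicates. The peak 480 bp upstream of F21C10.10 (pooled rank 26, signal 117) ranked 27, 31 and 48. The peak 178 bp upstream of cdc-48.1 (pooled rank 28, signal 107), which encodes an AAA ATPase that extracts ubiquitinated proteins, ranked 38, 34 and 77. These 4 peaks were the ones with a rank of 100 or better in every replicate.

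Several other high peaks held lower ranks in 1 replicate. The peak shared by rpl-15 and K11H12.8 (pooled rank 36) ranked 57, 32 and 301 in replicates 1, 2 and 3, and that shared by Y17G9B.5 and rpl-20 (pooled rank 42) ranked 138, 57 and 58. The peak 75 bp upstream of wdr-23 (pooled rank 65), whose product directs the stress factor SKN-1 to degradation, ranked 83, 48 and 741. That 68 bp upstream of the histone H4 gene his-37 (pooled rank 73) ranked 95, 181 and 94, within a narrower range. The replicates differed most at F56C9.10 (pooled rank 64; 1159, 72 and 49), at cox-5A (pooled rank 101; 314, 75 and 2197), a subunit gene of cytochrome c oxidase, and at C39E9.8 (pooled rank 116; 270, 2669 and 38). Of the 25 highest upstream peaks, all 25 had a summit in every replicate list, 18 had a worst rank of 500 or better and 3, those just named, one past 1000. The worst of the 3 ranks came from replicate 1 at 8 of them, from replicate 2 at 7 and from replicate 3 at 10, so no single replicate set the low ranks.

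**Figure D1:**
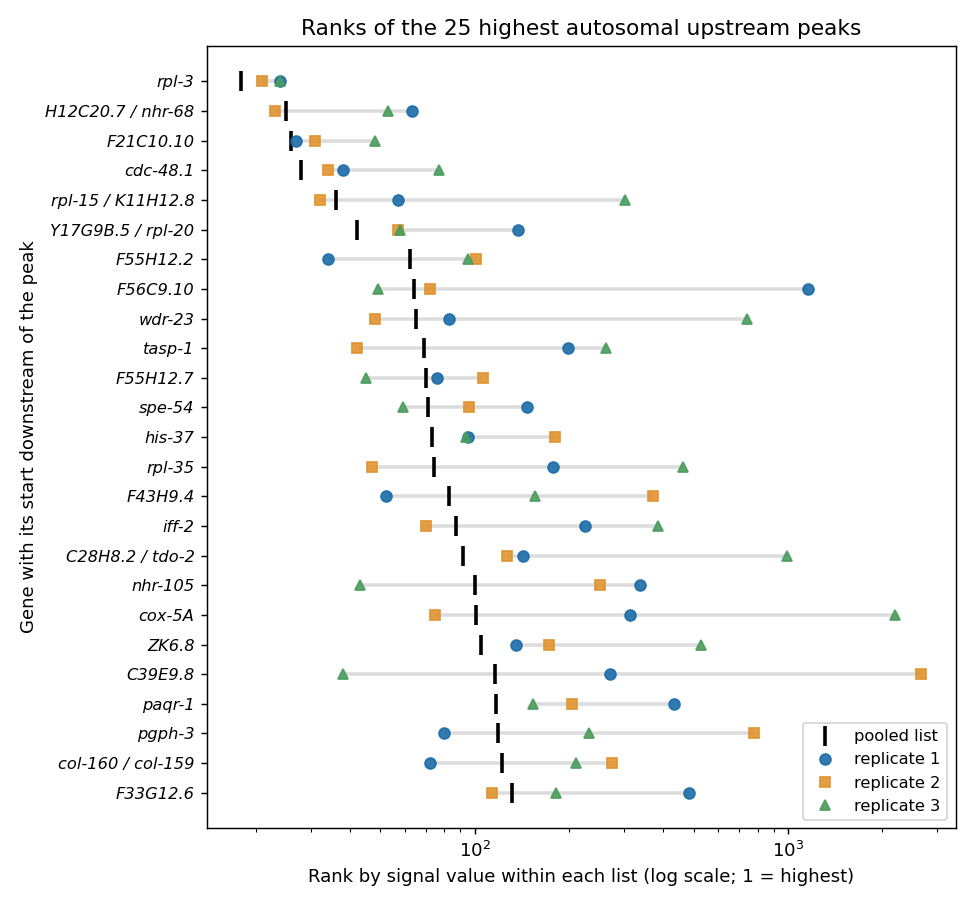
Ranks of the 25 highest upstream peaks, by falling pooled signal. The x axis (log scale) is the rank by signal value within each list, the black mark is the pooled list, coloured points are the 3 replicates and the grey line spans them. The points of rpl-3 lie together at 21 to 24, and those of F56C9.10, cox-5A and C39E9.8 spread to 1159, 2197 and 2669.

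The remaining genes of the 25 highest peaks belonged to varied functions. They included tasp-1 (rank 69, 3 bp), rpl-35 (rank 74, 452 bp), F43H9.4 (rank 83, 155 bp), the translation factor gene iff-2 (rank 87, 89 bp), nhr-105 (rank 100, 392 bp), ZK6.8 (rank 105), the adiponectin receptor homologue paqr-1 (rank 117), pgph-3 (rank 119) and F33G12.6 (rank 132), each with its pooled rank and, where given, the distance of the summit to the start. The peak 146 bp upstream of C28H8.2 (rank 92) also lay in front of tdo-2, which encodes a tryptophan dioxygenase. A run of 4 upstream peaks lay within 3510 bp on chromosome I, at F55H12.7 (rank 70), F55H12.2 (ranks 62 and 1720) and spe-54 (rank 71), a gene of sperm development. The peaks with ranks 62, 70 and 71 held ranks between 34 and 147 in every replicate.

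The choice ended within a continuous range of values. The lowest upstream peaks inside it lay 272 bp upstream of arrd-22 (rank 2980, signal 19.3), 229 bp upstream of F28H7.8 (rank 2991, signal 19.3) and 52 bp upstream of rab-11.1 (rank 2999, signal 19.2), a gene for a small GTPase of membrane traffic. The first peaks past it that met the position rule lay upstream of F58B4.5 (rank 3002), M04C7.4 (rank 3003) and hrg-7 (rank 3008), all with a signal of 19.2. The peak of arrd-22 had a summit in the list of replicate 2 alone, at rank 1528, and that of F28H7.8 ranked 18801, 7147 and 12951.

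Within the upstream window, summits lay nearer to the gene start than to its far edge. The median distance over the 802 pairs was 206.5 bp, with quartiles of 116 and 317 bp and a range of 0 to 498 bp. There were 172 pairs at 0 to 99 bp, 216 at 100 to 199 bp, 185 at 200 to 299 bp, 141 at 300 to 399 bp and 88 at 400 to 500 bp. The median measured from the matched summits of replicates 1, 2 and 3 was 206.5, 206 and 210 bp, which the matching within 200 bp largely fixes. With piRNA genes left out of the annotation, the summit lay outside any gene at 579 of the 687 peaks (84.3%). It lay in an intron of a coding gene at 37, in a noncoding exon of a coding gene at 33 and in the body of a noncoding gene at 33. At 5 it lay in coding sequence, namely at ran-5, gasr-8, aha-1, F11E6.9 and srh-2.

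**Figure D2:**
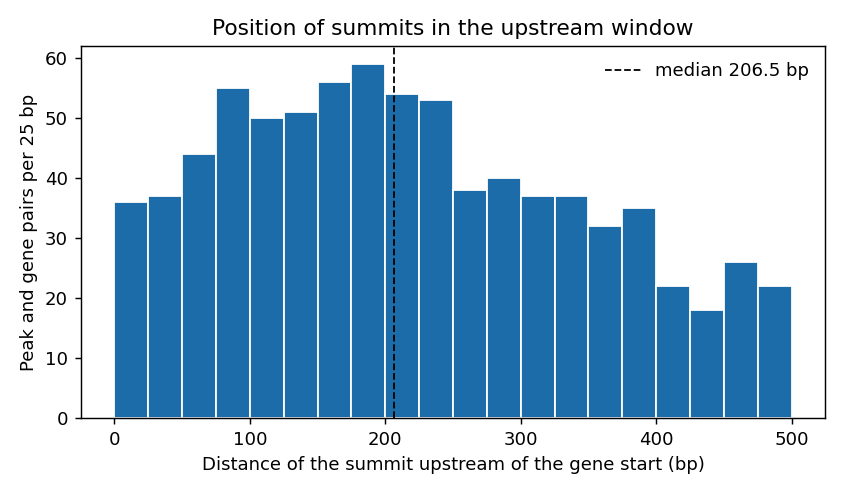
Distance of each upstream summit to the gene start, for 802 pairs of peak and gene. The x axis is bp upstream of the annotated start and the y axis the number of pairs per 25 bp, and the dashed line marks the median of 206.5 bp. Pairs are most frequent between 75 and 250 bp and thin out towards 500 bp.

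Divergent gene pairs were common among the genes with an upstream peak. At 106 of the 687 peaks (15.4%, exact 95% interval 12.8 to 18.4) the summit lay in the windows of genes on opposite strands, the highest being those of H12C20.7 and nhr-68, of rpl-15 and K11H12.8, and of Y17G9B.5 and rpl-20. Among the 786 genes, 34% had an opposite gene start within 1000 bp upstream, against 18.9% of the other 16456 autosomal coding genes. The median gap to the next coding gene upstream was 814 bp for the former and 1031 bp for the latter. A single summit between divergent starts counts for both genes under the rule, and the part of this in the difference was not tested. The median span of the genes was 2155 bp with an upstream peak and 1952 bp without one.

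In 16 genes, 2 upstream peaks were counted, with summits 199 to 269 bp apart and a median gap of 202 bp. For H12C20.7 and nhr-68, the second peak (rank 1359, signal 26.5) lay 199 bp from the peak of rank 25. For the collagen genes col-160 and col-159, it held rank 2927, beside rank 122. Over the 16 genes the median rank was 858 for the higher and 2438 for the lower peak. In all, 18 upstream peaks (2.62%) had a higher peak of the 3000 within 250 bp, and such neighbours are not independent sites. Apart from piRNA genes, which were not searched, 54 of the 687 peaks (7.86%) also lay upstream of a noncoding gene. Among them were 28 with an unclassified ncRNA, 10 with a snoRNA, 5 with a tRNA and 5 with a miRNA gene.

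Upstream peaks were spread over the autosomes much as coding genes were. Chromosomes I to V held 14.6%, 20.4%, 17.6%, 18.5% and 29.0% of them, in that order, against 16.7%, 20%, 15.3%, 19% and 29.0% of the autosomal coding genes. Among the other autosomal peaks the share on chromosome V was 21.3%. The share of genes with an upstream peak ran from 4.07% on chromosome I to 5.87% on chromosome III. When each chromosome was cut into 3 equal lengths, the central length held 49.5% of upstream peaks (exact 95% interval 45.7 to 53.3), 51.2% of the other autosomal peaks and 38.1% of coding gene starts. On chromosome III, with 36.4% of upstream peaks against 40.3% of gene starts, the order was the other way round, while on chromosome V the shares were 56.3% and 36%.

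Recurrence in the replicate lists was counted as a summit within 200 bp in the list of a replicate. The pooled list was made from the same reads, so recurrence is not independent of the choice and was not tested. None of these lists is the authors' thresholded one, and a summit in them need not be a called peak. Of the 687 upstream peaks, 382 (55.6%, exact 95% interval 51.8 to 59.4) had a summit in all 3 lists, beside 56.8% of the other autosomal peaks. A further 264 had one in 2 lists, 40 in 1 list and 1 in none. The exception was the peak 347 bp upstream of the glutathione transferase gene gst-1 (rank 1563). The lists of replicates 1, 2 and 3 held a summit for 571 (83.1%), 637 (92.7%) and 506 (73.7%) upstream peaks, while 11.2%, 11.5% and 8.29% of the autosomal sequence lay within 200 bp of any of their 30000, 30000 and 21628 summits. Matched summits lay a median of 36, 23 and 41 bp from the pooled one.

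Fewer upstream peaks kept a high rank in each replicate than were present in each. Among the upstream peaks, 100 (14.6%) were in the top 3000 of all 3 lists, beside 14.9% of the other autosomal peaks. Another 207 were in the top 3000 of 2 lists, 293 in that of 1 list and 87 in no such list. The top 3000 of replicate 2 held 422 of the upstream peaks, against 289 for replicate 1 and 296 for replicate 3, and it was the sole list to rank them there for 153. Spearman's rho between replicate ranks of upstream peaks matched in both lists was 0.17 for replicates 1 and 2 (n = 523 peaks), 0.20 for 1 and 3 (n = 418) and 0.23 for 2 and 3 (n = 469). These coefficients describe peaks of 1 experiment chosen for a high pooled signal, which narrows the range of ranks.

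Presence in all 3 lists fell with pooled rank. It was 85.9% for the 128 upstream peaks past the authors' threshold, which are those of the best ranks, 68.9% for the next 132, to rank 1200, 56.5% for the 147 of ranks 1201 to 1800, 37.7% for the 151 of ranks 1801 to 2400 and 31.8% for the last 129, to rank 3000. The other autosomal peaks ran from 89.9% to 33.1% over the same ranges. In the first range 56.3% of upstream peaks were in the top 3000 of all 3 lists, and in the last none of 129 was.

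**Figure D3:**
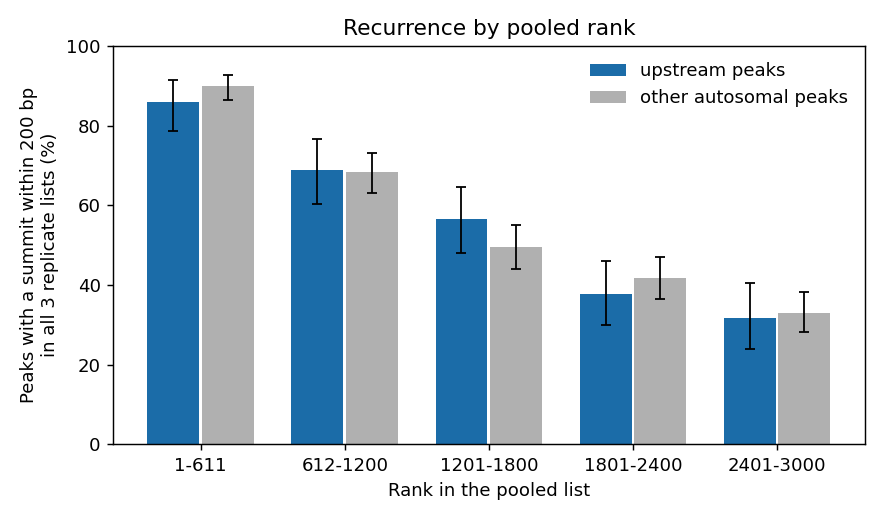
Share of peaks with a summit within 200 bp in all 3 replicate lists (y axis, percent) by range of pooled rank (x axis), for upstream peaks in blue and other autosomal peaks in grey. Error bars are exact 95% intervals for counting error. The share of upstream peaks falls from 85.9% to 31.8%, and the intervals of the 2 sets overlap in every range.

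Applied to the top 3000 peaks of each replicate list, the same rule found 583, 677 and 585 coding genes in replicates 1, 2 and 3, or 3.38%, 3.93% and 3.39% of the autosomal coding genes. It named 108 genes in all 3, of which 107 were among the 786, or 13.6% of them. None of the 3 lists named 113 of the 786 genes (14.4%). The genes with the best worst rank over the replicates were rpl-3, F21C10.10, H12C20.7 with nhr-68, cdc-48.1, F55H12.2, F55H12.7, Y17G9B.5 with rpl-20, spe-54, his-37 and tasp-1, whose worst ranks ran from 24 for rpl-3 to 263 for tasp-1.

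The genes were then grouped into 29 lists by function, in which 185 of the 786 genes (23.5%) had a place, beside 24.1% of all autosomal coding genes. The lists are partial, so each count holds for the listed genes alone and not for every gene of that function. Genes for protein synthesis were among those with the highest shares, read beside the 4.56% of all autosomal coding genes. An upstream peak was found at 20 of 80 cytosolic ribosomal protein genes (25%), 12 of 48 for the large and 8 of 32 for the small subunit. The top 3000 of replicates 1, 2 and 3 gave 15, 17 and 13 such genes. After the genes named above, the highest were rps-19 (rank 203; 157, 298 and 670 in the replicates), rpl-12 (rank 285; 247, 522 and 2567) and rps-12 (rank 399; 2657, 335 and 492). At 15 of the 20 the summit lay over 250 bp upstream, with a median of 309.5 bp, against 37.8% and 204.5 bp over all 786 genes. At 12 of the 20 the peak was shared with another coding gene, such as hsr-9 with rps-19 and lin-54 with rpl-12, so that it cannot be assigned to either.

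Translation initiation and elongation factors had an upstream peak at 7 of 38 genes (18.4%). These were iff-2 (signal 67.1), eif-3.C (32.2), eef-1A.1 (28.0), eef-2 (26.5), eef-1G (25.7), eif-3.B (22.4) and inf-1 (20.7), given with their pooled signals. The iff-2 peak ranked 225, 70 and 384 in replicates 1, 2 and 3, whereas that of eif-3.C, a subunit gene of an initiation complex, ranked 330, 2312 and 1312. The replicate lists gave 6, 5 and 3 genes of this list. Of 32 tRNA synthetase genes, aars-1 and ears-2 had an upstream peak (6.25%), and of 83 genes for the mitochondrial ribosome and import 5 did (6.02%), led by mrpl-55 (rank 774).

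Genes of protein folding and energy metabolism followed. Heat shock and chaperonin genes had an upstream peak at 10 of 54 (18.5%), led by cct-8 (rank 222; 621, 455 and 900 in the replicates) and cct-1 (rank 692; 3383, 3635 and 572), which encode subunits of the cytosolic chaperonin, and dnj-13 (rank 693; 228, 16753 and 546), a J-domain co-chaperone gene. The replicate lists gave 2, 4 and 6 genes of this list, or 3.70%, 7.41% and 11.1%, so its share was lower in each of them than in the pooled list. All autosomal coding genes had shares of 3.38%, 3.93% and 3.39% there, so the list's share in replicate 1 was near that of all genes. At 6 of the 10 genes the peak was shared with another coding gene, and 5 genes were left when each peak went to its nearest start only. The list of nuclear genes of oxidative phosphorylation had one at 7 of 41 (17.1%), and the replicates gave 4, 4 and 2. The 7 were cox-5A, cox-5B, atp-1, atp-2, atp-3, atp-5 and cyc-1. The complex I genes ndua-8 (rank 1350) and nduf-11 (rank 1783), outside this list, also had one. After cox-5A, the highest was cox-5B (rank 499), which ranked 1666 and 394 in replicates 1 and 2 and had no summit in replicate 3. Ubiquitin pathway genes had one at 5 of 32 (15.6%), led by ubc-6 (rank 751) and the activating enzyme gene uba-1 (rank 1433), the vacuolar ATPase at 2 of 17 (vha-1 and vha-17) and the proteasome at 2 of 33 (pbs-1 and rpn-3).

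Among structural genes, cuticle collagens and cuticle genes had an upstream peak at 19 of 186 (10.2%), 16 of them among the 129 col genes, and the replicates gave 14, 16 and 15. L4 larvae build a new cuticle for the adult. The peak shared by the adjacent genes col-160 and col-159 (rank 122) ranked 72, 275 and 210, and that of col-122 (rank 317) ranked 500, 602 and 227. The list also held rol-6 (rank 971) and bli-6 (rank 664), collagens known from mutants with a twisted or blistered body. The 19 peaks of this list had a median signal of 34.9, beside 25.3 for all 687 upstream peaks, a description of values that the rule used, and 10 of the genes had a peak past the authors' threshold. Cytoskeleton, tubulin and adhesion genes had one at 4 of 84 (4.76%), among them the tubulin genes tba-2 (rank 320) and tbb-1 (rank 620). Muscle genes had one at 2 of 45 (4.44%), unc-112 (rank 463) and act-2 (rank 2488). Both shares were near the 4.56% of all autosomal coding genes. Collagens, histones and other multigene families have near-identical copies, and how reads shared between copies were treated is not given in the sources used here.

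Among regulators of transcription, nuclear hormone receptor genes had an upstream peak at 17 of 247 (6.88%), and 8 of the genes had one past the authors' threshold. After nhr-68 and nhr-105 the highest was nhr-256 (rank 136; 222, 115 and 869 in the replicates), and nhr-49, a regulator of fat metabolism, held rank 1074. Other transcription factor families had one at 11 of 163 (6.75%), led by hlh-11 (rank 217), dmd-7 (rank 256) and the AP-1 gene jun-1 (rank 342), and including daf-16 (rank 786), the FOXO factor of insulin signalling. Of the 67 genes in the homeobox list, nob-1 alone had one, at rank 2978. The homeobox gene irx-1, outside that list, had one at rank 425. Chromatin regulators had one at 8 of 84 (9.52%), led by the methyltransferase gene set-16 (rank 269; 2328, 332 and 466). The list of signalling genes had one at 2 of 48, sma-3 and daf-8. That of genes named for kinase activity had one at 3 of 62, mlk-1, cdk-7 and kin-14. Genes of these kinds outside the lists also had one, such as the Wnt pathway gene mig-5 (rank 692) and the kinase gene wts-1 (rank 747).

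Enzymes of xenobiotic and lipid metabolism had an upstream peak at 18 of 255 genes (7.06%), led by gst-7 (rank 135; 139, 170 and 681 in the replicates) and the glucuronosyltransferase genes ugt-13 (rank 321; 5408, 1031 and 326) and ugt-58 (rank 347; 1187, 1147 and 627). Protease, lysozyme and lectin genes, listed as intestinal, had one at 12 of 328 (3.66%), led by clec-126 (rank 445) and cpr-4 (rank 634). Of the 12, 7 were clec genes, and their names do not show in which tissue they act. Shares below 4.56% were found in both large and small lists. Chemoreceptor families had an upstream peak at 9 of 1276 genes (0.705%), the highest at srz-62 (rank 629; 29924, 520 and 722), and F-box, MATH and BTB families at 7 of 412 (1.70%), the highest at fbxa-108 (rank 366). In the list of neuropeptide and synaptic genes, 3 of 138 had one (nlp-24, nlp-27 and nlp-31), and their names do not show in which cells they act. Core histones had one at 1 of 68, his-37. None of the 43 genes in the list of splicing factors and snRNP proteins had one, although replicate 1 gave 3 of them and replicate 2 gave 1. Genes of this kind outside the list did have one, such as snu-66 (rank 1067) and lsm-6 (rank 1995).

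Germline genes are of interest because Y-box proteins act on germline messenger RNA. Of 58 germ granule and germline RNA regulators, 4 had an upstream peak (6.90%, beside the 4.56% of all autosomal coding genes): mog-4 (rank 921), ifet-1 (rank 1296, shared with rps-1), atx-2 (rank 1405) and lin-28 (rank 2371), a heterochronic RNA-binding protein gene. The top 3000 of replicate 2 gave 4 genes of this list and those of replicates 1 and 3 gave 0. Meiosis and oocyte genes had one at 2 of 61 (him-17 and rme-8), sperm genes at 2 of 96 (spe-54 and spe-48), and Argonaute and small RNA genes at 1 of 65, tofu-1 (rank 1375).

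**Figure D4:**
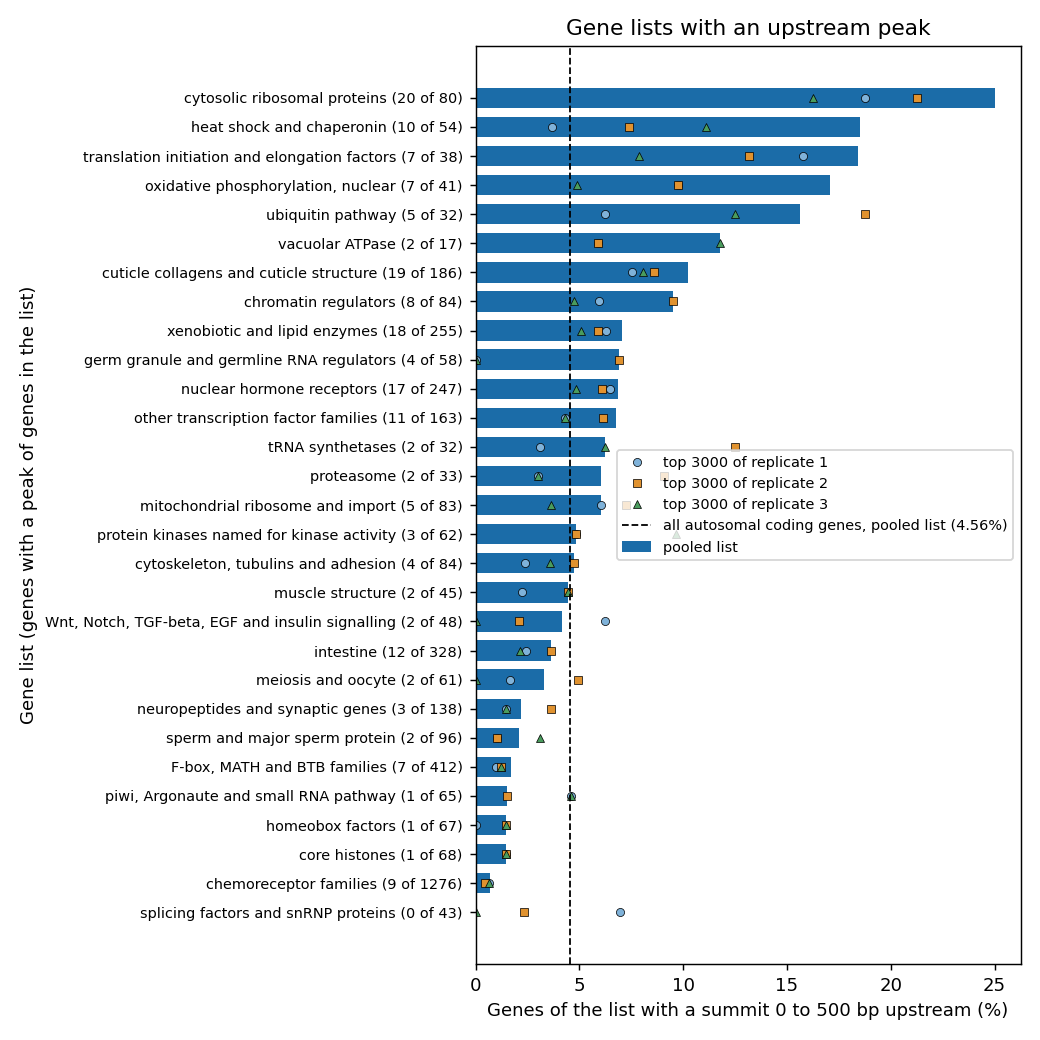
Share of the genes of each list with a summit 0 to 500 bp upstream (x axis, percent). Bars are the pooled list, points the top 3000 peaks of each replicate, and the dashed line the 4.56% of all autosomal coding genes in the pooled list. For the points of replicates 1, 2 and 3 the share of all autosomal coding genes was 3.38%, 3.93% and 3.39%, not drawn. The bar of the ribosomal protein genes reaches 25% with replicate points at 16.3% to 21.3%, and that of the chemoreceptor families ends at 0.705%.

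The sequence under the summits was not used by the rule. It was compared, over windows of 201 bp, with the windows of the other autosomal peaks and with 16456 promoter windows of the autosomal coding genes without an upstream peak, centred 206 bp upstream of the start. Upstream peaks had a median GC content of 37.8%, the other autosomal peaks 37.3% and the promoters 33.3%. GC content thus moved with peak presence, and its part in the word shares given next was not tested. No promoter window was left out for lying inside a neighbouring gene, whereas 84.3% of upstream summits lay outside genes, piRNA genes not counted. The part of this difference in the word shares was not tested either. Of 19 words searched on both strands, 9 were at least 1.5 times as frequent at upstream peaks as in promoters. These 9 include CTGATTGG, a long form of the Y-box found at 6 upstream peaks, whose exact interval holds the promoter share.

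GAGAGA lay in 31.6% of upstream peak windows (217 of 687, exact 95% interval 28.1 to 35.2), in 35.0% of those of other autosomal peaks and in 13.0% of promoters. TGATAA lay in 37.0% (33.4 to 40.7), 38.4% and 20.4%, CACGTG in 8.30% (6.34 to 10.6), 11.1% and 3.15%, and CTGCGTC in 12.4%, 10.2% and 2.92%, in the same order. So each of these 4 words was more frequent at upstream peaks than in promoters, and at close to the share of the peaks that lay elsewhere. None of the 4 was found in 34.6% of upstream windows and 65.5% of promoters, while 17 upstream windows held 3 of them and 1 held all 4. CTTATC, chosen after the values were seen as a further word of GATA factors and not independent of TGATAA where they overlap, lay in 26.6%, 24.3% and 9.17%. Words past 1.5 times also included the GT repeat GTGTGT, found at 15.7% of upstream peaks and 7.88% of promoters. The GC box GGGCGG was at 9.02% and 4.33%, and the alternating run GCGCGC at 5.82% and 2.55%. The word CCGTCTC was found at 3.35% and 1.23%. At the other autosomal peaks the shares were 18.4% for GTGTGT, 6.45% for GGGCGG, 3.57% for GCGCGC and 3.11% for CCGTCTC.

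Of the 20 words, the one chosen later included, 12 had a smaller median offset from the centre at upstream peaks than in promoters, among them 9 of the 10 that were at least 1.5 times as frequent there. The exception among those 10 was CTGATTGG, at 78.5 against 38.5 bp. The median offset from the summit to the nearest match was 37.5 bp for GAGAGA, 38.5 bp for CACGTG and 35 bp for CTGCGTC at upstream peaks, and 47.5, 50.5 and 50 bp from the centre of promoter windows. It was larger at upstream peaks for TATAAA, at 56.5 against 45.5 bp, and for ATTGG, at 47 against 44 bp. The windows printed above show such matches, with the E-box of H12C20.7 at the summit and CTGCGTC of unc-23 near it. Among the 128 upstream peaks past the authors' threshold, the shares were 40.6% for GAGAGA, 15.6% for CACGTG, 16.4% for CTGCGTC and 27.3% for GTGTGT, and 37.5% for TGATAA. Their median GC content was 39.8%.

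The core of the Y-box, ATTGG, lay in 29.5% of upstream windows (exact 95% interval 26.2 to 33.1), 31.5% of those of other autosomal peaks and 33.6% of promoters. The longer form CTGATTGG was found at 6 upstream peaks (0.873%, exact 95% interval 0.321 to 1.89), a range that holds the 0.553% of promoters. Within 50 bp of the summit the order turned, with 0.146% of upstream peaks and 0.316% of promoters. The peaks with this word were, by pooled rank, those of Y22D7AL.10 (427), plin-1 (553), cest-10 (1335), trpl-5 (1354), ZK669.5 (1416) and K02C4.2 (2697). Words with lower shares at upstream peaks than in promoters were TATAAA (21.3% and 25.2%) and TTTCAG, which matches a splice acceptor (21.3% and 32.1%). These are matches of letters in short windows and say nothing of what binds there.

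**Figure D5:**
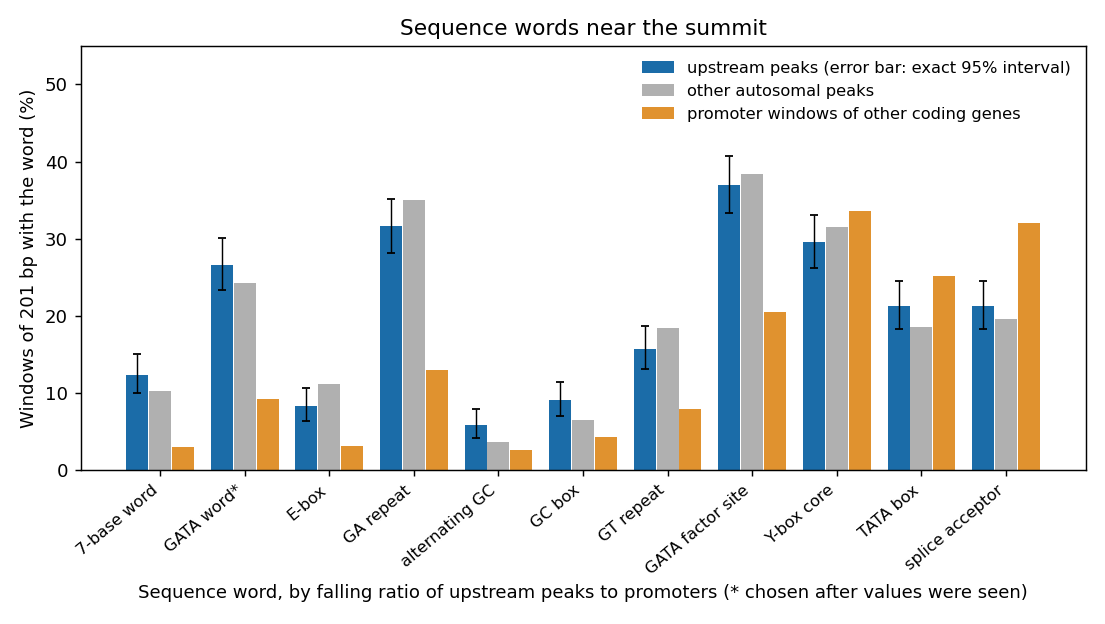
Share of 201 bp windows with each sequence word (y axis, percent), for upstream peaks in blue, other autosomal peaks in grey and promoters of other coding genes in orange. Words are ordered along the x axis by the ratio of upstream peaks to promoters, the 7-base word being CTGCGTC and the asterisk marking CTTATC. From the 7-base word to the GATA factor site the blue and grey bars stand above the orange, and for the Y-box core, the TATA box and the splice acceptor the orange bar is the tallest.

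Counts of the words by gene list follow for 5 lists, which were picked after the values were seen and were not tested. Over all upstream peaks the shares were 31.6% for GAGAGA, 37.0% for TGATAA, 8.30% for CACGTG, 12.4% for CTGCGTC and 26.6% for CTTATC. Of the 11 peaks upstream of the genes listed as intestinal, 10 held TGATAA (90.9%) and 7 CTTATC, while 1 held GAGAGA, 1 CACGTG and 1 CTGCGTC. Factors of the GATA family are known as regulators of intestinal genes, but whether the genes of this list act in the intestine was not tested. Frequent GATA words were not particular to this list. Outside the 5 lists, TGATAA and CTTATC lay at 5 and 4 of 7 peaks of F-box, MATH and BTB genes. They lay at 5 and 6 of 10 peaks of chemoreceptor genes. Other lists had few, with TGATAA at 2 of 10 heat shock and chaperonin peaks and 0 of 7 translation factor peaks. Of the 19 peaks upstream of ribosomal protein genes, 4 held GAGAGA, 2 TGATAA, 1 CTGCGTC and none CACGTG, and the window of rpl-15 above is one without any of them. Of the 20 peaks upstream of nuclear hormone receptor genes, 11 held GAGAGA, 8 TGATAA, 5 CACGTG and 5 CTGCGTC, the peak of nhr-68 among them. Of the 19 peaks of cuticle genes, 9 held TGATAA and none CACGTG or CTGCGTC. Of the 18 peaks of xenobiotic and lipid enzymes, 9 held TGATAA and 10 CTTATC.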

How the data were processed

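Peak lists of the pooled replicates and of each of the 3 biological replicates, in build ce11 (WBcel235), were used as deposited by the authors; the 5 lists in ce10 were not used. Column 7 of each deposited list is the peak caller's own signal value, a score read only within its own list. The −log10 q-value deposited by the authors reached a ceiling of 3.12, shared by 143 upstream peaks, and was not used to rank. The summit is the deposited peak start plus the authors' summit offset, a score in bp. The pooled list held 25484 peaks and, like that of replicate 2, was deposited as peaks and background for input to the IDR threshold. The authors' thresholded list held 611 peaks. The lowest −log10 q-value of an upstream peak was 0.894. Names and versions of the aligner and the peak caller were not given in the sources used here. The depth is unknown too, so its precision cannot be stated.

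Gene starts came from Ensembl release 115 and sequence from the RefSeq genome of the same assembly. Peaks were ranked by signal, and the first 3000 were assigned to every coding gene with the summit 0 to 500 bp upstream. Summits of different lists were matched to the nearest within 200 bp. Words were searched within 100 bp of the summit, on both strands. The 95% intervals of shares are exact (Clopper-Pearson) and hold for counting error alone. All libraries form 1 group, and no test was made, because the members were chosen by the values and peaks are not replicates. The position rule, the matching and the word search were tested on simulated data. Python 3.11.15, numpy 2.4.6, pandas 2.3.3, scipy 1.17.1 and matplotlib 3.10.9 were used.

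The members and the gene and word lists were chosen with earlier results of these data known. Genes were named where they belonged to the 25 highest peaks, the 3 highest of a gene list, the peaks on either side of the lower limit, the 10 best worst ranks, the 3 highest divergent peaks, genes with 2 peaks or the 2 highest peaks with a word outside chromosome I. Other genes named from the gene lists or as lying outside them, and from shared peaks and coding sequence, were chosen after their values were seen. The same holds for gst-1 and the other genes with CTGATTGG. Alternatives varied the window, the number of peaks, the matching distance and the word window, and left out each replicate.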

Additional observations from a re-analysis of the deposited data

How the results depend on the processing

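The number of upstream peaks, 687, followed the limits of the choice: it was 449 with a window of 250 bp, 128 in the authors' thresholded list or among as many top peaks, 333 among the top 1500 and 1211 among the top 6000. The number of genes, 786, was 492 with 250 bp, 142 for as many top peaks as that list holds and 1354 for the top 6000, and divergent peaks, 106, numbered 42 with 250 bp and 178 with 1000 bp. Peaks with a summit in all 3 replicate lists, 382, numbered 238 when summits had to lie within 100 bp and 110 for the 128 thresholded ones, and between 418 and 523 without 1 replicate, which asks for 2 lists only. Peaks in the top 3000 of each list, 100, numbered between 138 and 196 without 1 replicate. The median distance was 210 bp from the summits of replicate 3. Ribosomal protein genes with an upstream peak, 20, numbered 5 with 250 bp and 13 when each peak was given to its nearest start only, and heat shock and chaperonin genes, 10, numbered 5. With 250 bp the share of all autosomal coding genes fell too, from 4.56% to 2.85%. The cause of these changes was not tested beyond the changed limit itself. The CTGATTGG ratio to promoters fell from 1.58 to 0.461 within 50 bp of the summit, on few matches. Matching to the best-ranked summit and leaving out peaks beside a higher one, which were chosen after seeing the data, gave 382 and 371 peaks in all 3 lists. Unknown depth limits all counts. No paired analysis was possible because the libraries form 1 group.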
